A study of Mus musculus with 6 samples.

Results

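The colony-stimulating factors and their receptors are 9 genes, taken by name from the 33965 genes of the deposited table. They are Csf1, Il34, Csf2 and Csf3 for the secreted ligands, and Csf1r, Csf2ra, Csf2rb, Csf2rb2 and Csf3r for the receptor chains. They were compared between tumors of 3 mice treated with PBS and tumors of 3 mice treated with GB2. GB2 is a prodrug that joins MSA-2, an agonist of the innate DNA sensing adaptor STING, to artesunate, used in this study as an inhibitor of the myeloid receptor TREM2. All 6 tumors were of MC38, a mouse colon carcinoma line inoculated under the skin of C57BL/6 mice, and no other genotype or agent is given for them. The study used female mice, 6 weeks old when obtained. The labels give neither the dose nor the day of collection for these tumors. The PBS group is therefore the only control, and neither MSA-2 nor artesunate alone is represented.

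Colony-stimulating factors are cytokines that keep myeloid cells alive and drive their division and maturation. Macrophage colony-stimulating factor (M-CSF, encoded by Csf1) and interleukin-34 (Il34) share 1 receptor tyrosine kinase, CSF1R, on which most tissue macrophages depend. Granulocyte-macrophage colony-stimulating factor (GM-CSF, Csf2) binds the alpha chain CSF2RA, which then joins the common beta chain CSF2RB. Granulocyte colony-stimulating factor (G-CSF, Csf3) acts on neutrophils and their precursors through CSF3R. Tumors commonly release M-CSF and attract macrophages that carry its receptor. In bulk RNA-seq, more cells of a type and more RNA per cell cannot be told apart, and every level below is an average over the whole tumor piece.

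Total estimated counts were between 64764405 and 83690056, with the 3 GB2 libraries larger than the 3 PBS libraries. Levels of 1 gene between tumors are given in CPM, which are counts scaled to the library total after TMM scaling, and levels between genes in FPKM, which also divides by transcript length. PBS tumor 1 was set apart from the other 5 tumors by the leading principal component of log2 CPM, with 34.0% of the variance. As a check of the tissue, 7 markers of intestinal epithelium summed to 6.80 to 7.78 CPM in PBS tumors and 8.12 to 12.7 CPM in GB2 tumors. Among them Vil1 reached 5.32 CPM and Cdh1 3.99 CPM, Krt8 and Epcam stayed at or below 2.40 and 1.01 CPM, and Krt19 and Cldn7 did not pass the filter. The skin keratins Krt5 and Krt14 were at 7.53 to 53.3 CPM and 4.58 to 47.5 CPM. Other listed genes of keratinocytes were lower, with Krt1 at 2.29 to 5.89 CPM and Krt10 at 4.63 to 7.86 CPM. Lor, Flg and Trp63 stayed at or below 2.31 CPM, and Ivl did not pass the filter.

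In GB2 tumors, the receptor genes Csf3r, Csf1r, Csf2rb and Csf2rb2 and the ligand gene Csf1 were higher than in PBS tumors, by 2.34-fold to 5.91-fold in mean CPM. Csf2ra and Il34 had overlapping levels in both groups. Csf3 was near the limit of detection and Csf2 below it. None of these differences passed the limits of the study's methods, an adjusted p under 0.05 and at least a 2-fold change, in edgeR's quasi-likelihood test. The same test called 0 of the 19602 genes tested (0%), and the smallest adjusted p of any gene was 0.166. Of the 9 genes, 8 passed the filter on low counts. With limits of 0.05 on the unadjusted p and of 2 on the fold change, 5 of these 8 were higher in GB2 tumors and 0 were lower. Over all genes tested, 3.74% were higher and 0.918% were lower at these limits. Without GB2 tumor 3, 4 of the family were higher, as Csf1 fell under the 2-fold limit. With limma on log2(FPKM + 1), 1 was higher. Leaving out PBS tumor 2 raised the number of all lower genes from 180 to 310, and leaving out PBS tumor 3 raised it to 548. DESeq2 called 5 of the 8 genes higher in GB2 tumors at an adjusted p under 0.05 and the same fold, where it called 1.80% of all genes with an adjusted p in that direction. limma on log2(FPKM + 1) called 0 of the 8. The lowest GB2 tumor exceeded the highest PBS tumor in 5 of the 7 tested genes other than Csf3, against 8.61% of all genes tested. Csf3 also had separate groups, but it passed the filter mainly through its GB2 tumors and is not counted.

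**Figure D1:**
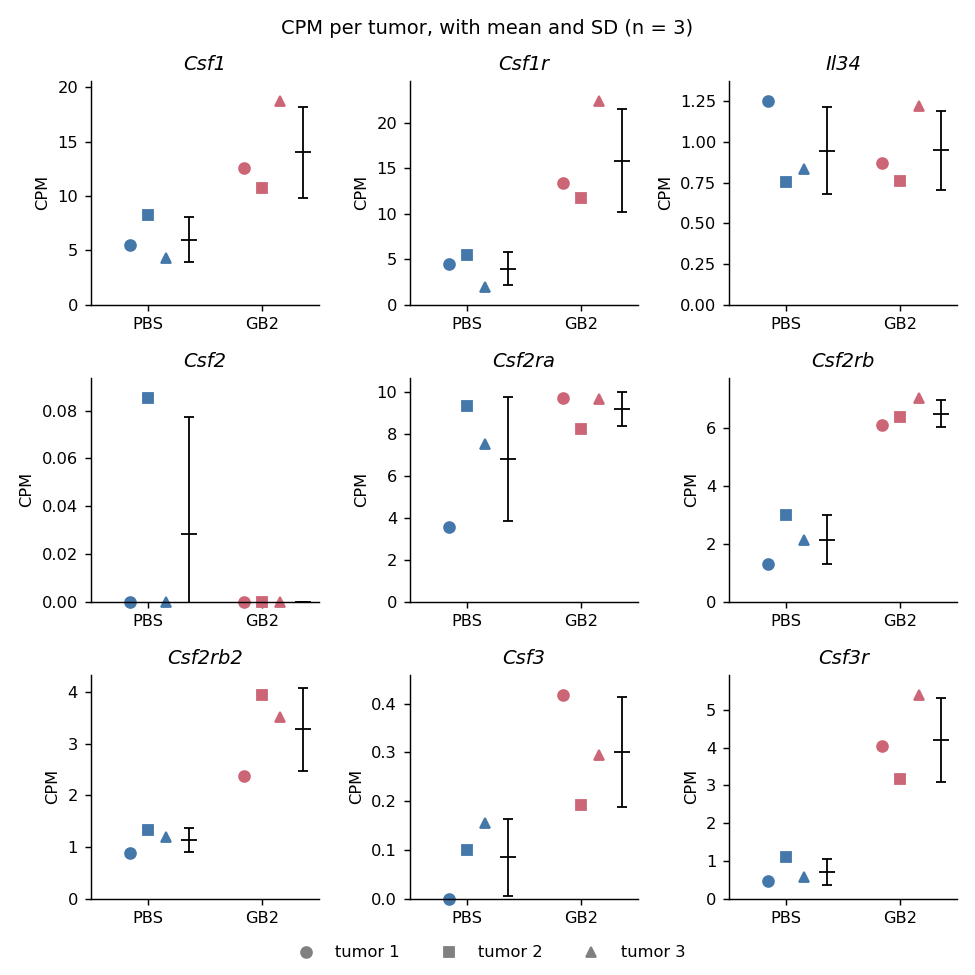
CPM (vertical axes, each starting at 0 with its own range) of the 9 genes in the PBS and GB2 tumors, with 1 symbol per tumor and the mean and SD of each group (n = 3) in black. The 2 groups are separate for Csf1, Csf1r, Csf2rb, Csf2rb2, Csf3 and Csf3r, overlap for Il34 and Csf2ra, and Csf2 has reads in PBS tumor 2 alone.

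Sequences around the transcription starts of members were read to show what the genes with separate groups hold there. The RefSeq table of promoters on GRCm38.p6, which gives 300 bases around a transcription start, matched 5 of the 9 genes by symbol. Those of Csf3r (chr4:126024409-126024708, plus strand), Csf2rb2 (chr15:78305672-78305971, minus strand) and Csf1 (chr3:107760420-107760719, minus strand) are printed as 3 genes that were higher in GB2 tumors, and that of Csf2ra (chr19:61228369-61228668, minus strand) as a receptor chain whose groups overlapped. The fifth, that of Csf2, is not printed because the gene was not detectable. Each is read 5′ to 3′ on the strand of its gene. Capitals mark matches on either strand to GAGGAA, the core letters bound by the myeloid factor PU.1, to TTCNNNGAA, bound by STAT factors, to TTGCNNAA, bound by C/EBP factors, or to TGANTCA, bound by AP-1.
Csf3r: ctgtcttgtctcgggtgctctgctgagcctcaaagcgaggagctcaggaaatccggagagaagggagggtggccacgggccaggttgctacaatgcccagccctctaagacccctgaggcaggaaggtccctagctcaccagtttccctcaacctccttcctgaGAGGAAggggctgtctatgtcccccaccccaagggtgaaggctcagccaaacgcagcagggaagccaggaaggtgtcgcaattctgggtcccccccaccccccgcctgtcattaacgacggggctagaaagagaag
Csf2rb2: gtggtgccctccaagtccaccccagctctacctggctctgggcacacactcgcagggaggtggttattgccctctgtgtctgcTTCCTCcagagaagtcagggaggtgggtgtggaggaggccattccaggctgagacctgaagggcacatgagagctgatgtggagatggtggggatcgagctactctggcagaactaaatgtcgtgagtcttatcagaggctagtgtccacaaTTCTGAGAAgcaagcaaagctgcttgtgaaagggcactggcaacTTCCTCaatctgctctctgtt
Csf1: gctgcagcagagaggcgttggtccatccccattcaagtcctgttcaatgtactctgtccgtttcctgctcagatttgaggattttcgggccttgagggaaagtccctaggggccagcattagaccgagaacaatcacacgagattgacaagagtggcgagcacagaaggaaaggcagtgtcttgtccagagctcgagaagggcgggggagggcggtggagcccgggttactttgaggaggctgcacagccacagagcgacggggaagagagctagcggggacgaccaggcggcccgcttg
Csf2ra: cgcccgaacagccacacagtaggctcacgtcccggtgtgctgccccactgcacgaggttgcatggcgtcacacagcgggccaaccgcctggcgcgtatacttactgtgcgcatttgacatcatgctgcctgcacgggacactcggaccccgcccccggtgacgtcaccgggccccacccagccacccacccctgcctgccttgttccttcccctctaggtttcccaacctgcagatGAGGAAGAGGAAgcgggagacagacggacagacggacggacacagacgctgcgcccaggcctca
The PU.1 letters occurred 1 time for Csf3r, 2 times for Csf2rb2, where 1 match lies downstream of the start, 2 times for Csf2ra and 0 times for Csf1. They are present in 28.3% of the 32851 promoters of this length, so they do not single out these genes. The STAT letters occurred 1 time for Csf2rb2 and are present in 8.30% of promoters. The C/EBP letters (10.8% of promoters) and the AP-1 letters (7.81%) were in none of the 4 printed windows, while that of Csf2 holds the C/EBP letters 1 time. No match overlapped another, and a match of letters is not a measured binding site.

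Csf1 (ENSMUSG00000014599, chromosome 3 from 107648364 to 107667785 in the positions of the table) encodes M-CSF, the main growth and survival factor of macrophages. Its level was 5.44, 8.26 and 4.26 CPM in PBS tumors 1, 2 and 3, and 12.6, 10.7 and 18.7 CPM in GB2 tumors 1, 2 and 3. The groups did not overlap, although the lowest GB2 tumor was only 1.30 times the highest PBS tumor. The means were 5.99 ± 2.06 CPM (SD, n = 3) and 14.0 ± 4.16 CPM (SD, n = 3). On the log2 scale the fold change was 1.23 ± 0.34 (standard error), and its 95% interval, not adjusted for the number of genes, was 0.44 to 2.01. Its adjusted p was 0.377 in edgeR's quasi-likelihood test and 0.0376 in DESeq2. Without GB2 tumor 3, the log2 fold change was 0.96, under the 2-fold limit.

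Csf1r (ENSMUSG00000024621, chromosome 18 from 61233670 to 61265221) encodes the receptor for M-CSF and interleukin-34 and is a defining gene of macrophages. It measured 4.43, 5.46 and 1.91 CPM in the PBS tumors and 13.4, 11.8 and 22.4 CPM in the GB2 tumors. Every GB2 tumor was at least 2.16 times the highest PBS tumor, and GB2 tumor 3 was the highest of all, as it was for Csf1. Csf1r thus had a log2 fold change of 2.01 (standard error 0.44, 95% interval 0.98 to 3.04), with an adjusted p of 0.266 in edgeR's quasi-likelihood test and 0.00128 in DESeq2. Hmgxb3, on the opposite strand, overlaps Csf1r by 873 bases and had 32.9 to 74.6 CPM with a log2 fold change of 0.14. Whether the counting used strand is not given in the sources used here.

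Il34 (ENSMUSG00000031750, chromosome 8 from 111468461 to 111532535) encodes the other ligand of this receptor, known for its role in Langerhans cells of the skin and microglia of the brain. Its level was 1.25, 0.752 and 0.835 CPM in the PBS tumors and 0.869, 0.757 and 1.22 CPM in the GB2 tumors. The values interleave, with the highest tumor in the PBS group and the means at 0.946 ± 0.268 and 0.950 ± 0.243 CPM (SD, n = 3 each). Its fold change on the log2 scale was 0.01, and the 95% interval of -0.92 to 0.94 leaves room for a change of almost 2-fold either way. The 2 ligands of CSF1R thus had unlike values in the same tumors, but the difference between their changes was not tested.

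**Figure D2:**
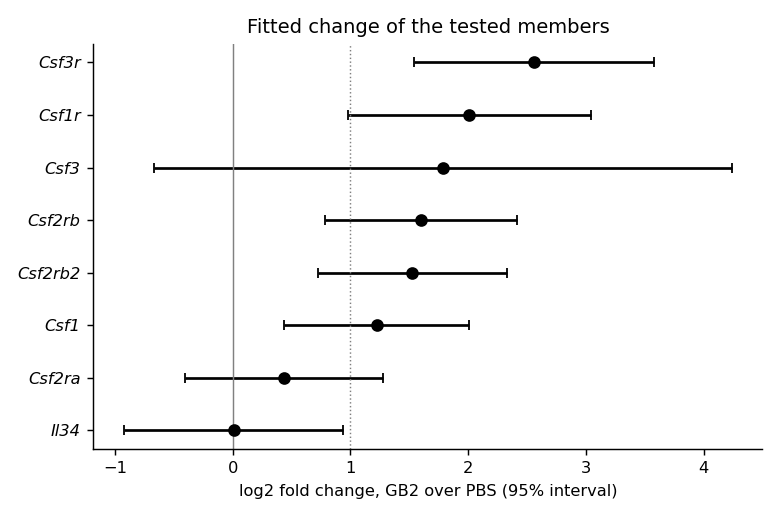
Log2 fold change of GB2 over PBS tumors (horizontal axis) from edgeR's quasi-likelihood fit for the 8 tested genes, with 95% intervals that are not adjusted for multiple genes. The solid line marks no change and the dotted line a 2-fold change. The intervals of Csf3r, Csf1r, Csf2rb, Csf2rb2 and Csf1 lie above 0, while those of Csf3, Csf2ra and Il34 include it.

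Csf2 (ENSMUSG00000018916, chromosome 11 from 54138097 to 54140493), the gene of GM-CSF, was not detectable at this depth. Its estimated count was 0 in 5 tumors and 6 in PBS tumor 2, where about 4 counts stand for 1 read pair. The limit that a count of 0 allows, 3 read pairs or 12 counts in a tumor, is 0.141 to 0.203 CPM in these libraries and covers counting error only. Csf2 did not pass the filter and has no test or fold change.

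Csf2ra (ENSMUSG00000059326, chromosome 19 from 61212395 to 61216856) encodes the alpha chain that gives the receptor its specificity for GM-CSF. It measured 3.57, 9.35 and 7.53 CPM in the PBS tumors and 9.71, 8.26 and 9.67 CPM in the GB2 tumors. PBS tumor 1 was the low one, and PBS tumor 2 lay within the range of the GB2 tumors. The log2 fold change was 0.43 (standard error 0.36, 95% interval -0.41 to 1.27), with an adjusted p of 0.803 in edgeR's quasi-likelihood test. Its size rested on PBS tumors 1 and 2, at 0.14 without the former and 0.73 without the latter.

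Csf2rb (ENSMUSG00000071713, chromosome 15 from 78209952 to 78238047) encodes the beta chain shared by the receptors for GM-CSF, interleukin-3 and interleukin-5, and couples them to the kinase JAK2. Its level was 1.30, 2.99 and 2.12 CPM in the PBS tumors and 6.09, 6.38 and 7.02 CPM in the GB2 tumors. The 3 GB2 tumors were close together, and the lowest was 2.03 times the highest PBS tumor. This gave a log2 fold change of 1.60 (standard error 0.35, 95% interval 0.78 to 2.42), with an adjusted p of 0.262 in edgeR's quasi-likelihood test and 0.00145 in DESeq2.

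Csf2rb2 (ENSMUSG00000071714, chromosome 15 from 78166707 to 78189921) is the neighbouring copy found in mice, whose product serves interleukin-3 only. It measured 0.879, 1.32 and 1.20 CPM in the PBS tumors and 2.38, 3.93 and 3.51 CPM in the GB2 tumors, again without overlap. This gave a log2 fold change of 1.53 (standard error 0.34, 95% interval 0.73 to 2.33), with an adjusted p of 0.269 in edgeR's quasi-likelihood test and 0.00313 in DESeq2. Among all pairs of tested members, Csf2rb and Csf2rb2 had the most alike patterns over the 6 tumors, at a root mean squared difference of 0.27 between their centred log2 CPM values.

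The 2 beta chain genes are near-identical, and a small share of their reads cannot be told apart. In the GENCODE vM21 transcripts, their longest coding sequences of 2688 bases for Csf2rb and 2634 bases for Csf2rb2 were identical at 95.2% of 2628 aligned bases. Of all windows of 150 bases, the read length, in the coding sequence of Csf2rb, 6.50% were present unchanged in that of Csf2rb2, and 3.47% over the whole transcript. The first 90 bases from the start codon are shown for their 3 differences, which are in capitals.
Csf2rb: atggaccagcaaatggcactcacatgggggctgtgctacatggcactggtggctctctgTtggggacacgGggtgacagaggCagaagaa
Csf2rb2: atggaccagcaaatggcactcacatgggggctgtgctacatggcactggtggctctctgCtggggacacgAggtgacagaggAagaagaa
The log2 CPM of Csf2rb minus that of Csf2rb2 was 0.55, 1.17 and 0.81 for PBS, against 1.34, 0.70 and 1.0 for GB2. These ranges overlap, and the mean differed by 0.17 between the groups (exact two-sided permutation test, p = 0.6, adjusted p over 4 comparisons 0.7). It dropped to 0.03 when PBS tumor 1 and to 0.0049 when GB2 tumor 1 was left out, and was 0.33 when either PBS tumor 2 or GB2 tumor 2 was. How reads of the shared stretches were split between the copies is not given in the sources used here.

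Csf3 (ENSMUSG00000038067, chromosome 11 from 98592089 to 98594455), the gene of G-CSF, had estimated counts of 0, 7 and 11 for PBS, against 35, 16 and 25 for GB2. These stand for 4.50 read pairs in all PBS tumors together and 19.0 in all GB2 tumors together. Each PBS tumor was under the 12 counts of the detection limit and each GB2 tumor over it. The gene passed the filter through its 3 GB2 tumors and 1 PBS tumor. Its log2 fold change of 1.79 (standard error 1.05) had a 95% interval of -0.67 to 4.24 and an adjusted p of 0.759 in edgeR's quasi-likelihood test.

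Csf3r (ENSMUSG00000028859, chromosome 4 from 125918343 to 125938233) encodes the G-CSF receptor, found mainly on neutrophils and their precursors and on monocytes at a lower level. It measured 0.457, 1.09 and 0.580 CPM in the PBS tumors and 4.05, 3.16 and 5.38 CPM in the GB2 tumors. The lowest GB2 tumor was 2.89 times the highest PBS tumor, the widest gap among the members with separate groups, with Csf3 left out. The means were 0.710 ± 0.337 CPM and 4.20 ± 1.11 CPM (SD, n = 3 each). The log2 fold change of 2.56 (standard error 0.44, 95% interval 1.54 to 3.58) was the largest of the 8 genes and ranked at the 99.6th percentile of all genes tested, with an adjusted p of 0.190 in edgeR's quasi-likelihood test and 6.1e-06 in DESeq2.

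Per transcript length, Csf2ra had the highest level in both groups, at 2.23 ± 1.07 FPKM in PBS tumors and 3.13 ± 0.350 FPKM in GB2 tumors (SD, n = 3 each). In PBS tumors it was followed by Csf1 (1.05 FPKM), Csf1r (0.628), Il34 (0.437), Csf2rb (0.274), Csf2rb2 (0.223), Csf3r (0.183), Csf3 (0.0559) and Csf2 (0.0322). Every pair of neighbours in this order overlapped in range apart from Csf3r and Csf3. In GB2 tumors the order was Csf2ra, Csf1r (2.70 FPKM), Csf1 (2.60), Csf3r (1.14), Csf2rb (0.873), Csf2rb2 (0.673), Il34 (0.471), Csf3 (0.208) and Csf2 (0). Here the first 3 genes overlapped, as did Csf3r with Csf2rb and Csf2rb2 with Il34. The other neighbours were separate in the 3 tumors. Csf3r held the 7th place in PBS tumors and the 4th in GB2 tumors, and Il34 the 4th and the 7th.

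**Figure D3:**
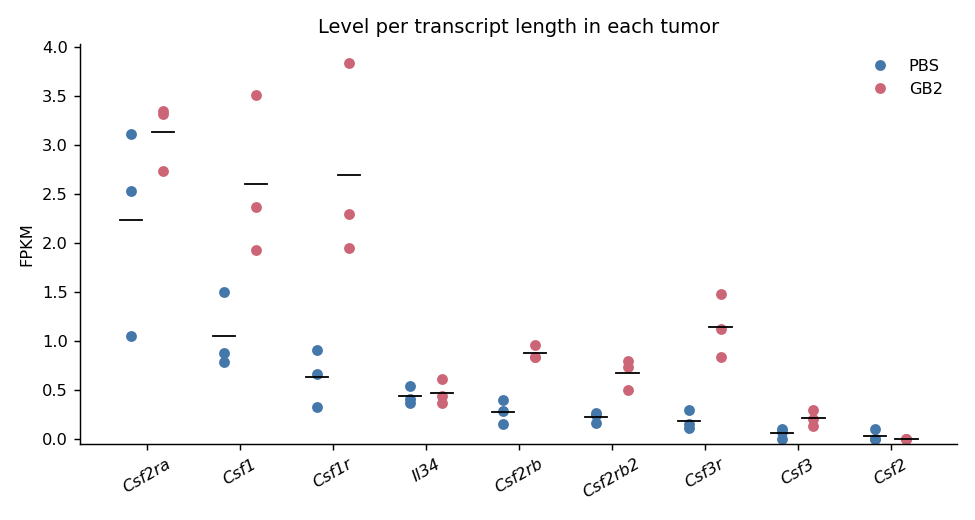
FPKM (vertical axis, linear) of the 9 genes in each PBS and GB2 tumor, ordered by the mean in PBS tumors, with 1 point per tumor and a short line at each group mean. Csf2ra is highest in both groups, and Csf1 and Csf1r reach similar levels in GB2 tumors.

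The balance of ligand and receptor was compared next. The log2 CPM of Csf1 minus that of Csf1r was 0.30, 0.59 and 1.15 for PBS, against -0.09, -0.14 and -0.26 for GB2. The groups did not overlap, and the mean was lower in GB2 tumors, with a difference of -0.84 (exact two-sided permutation test, p = 0.1, the smallest value that 3 tumors against 3 can give, and 0.4 after Benjamini-Hochberg adjustment over the 4 such comparisons made). Per length, the ratio of Csf1 to Csf1r was 1.34, 1.65 and 2.44 for PBS, against 1.03, 0.993 and 0.913 for GB2.

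Csf1r and Csf3r were also set against markers of cells that carry them, which was not done for the other receptor chains. All 10 macrophage markers had every GB2 tumor above every PBS tumor, against 8.61% of all genes tested. Their summed level was 34.9 to 52.1 CPM in PBS and 115 to 201 CPM in GB2 tumors. Csf1r minus the mean log2 CPM of these markers was 0.40, 0.62 and -0.27 for PBS, against 0.59, 0.33 and 0.62 for GB2. The ranges overlapped and the means differed by 0.26 (exact two-sided permutation test, p = 0.7, adjusted p over 4 comparisons 0.7, in a design that cannot go below p = 0.1). This difference was -0.00071 without PBS tumor 3 and 0.44 without PBS tumor 2.

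The neutrophil list was sparser. Of its 10 genes, 6 passed the filter on low counts, and the list had a summed level of 3.90 to 6.16 CPM in PBS and 18.1 to 19.0 CPM in GB2 tumors. All 6 had positive log2 fold changes, and 5 had every GB2 tumor above every PBS tumor, against 8.61% of all genes tested. S100a8 was at 0.372 to 0.667 CPM in PBS and 1.41 to 1.83 CPM in GB2 tumors. S100a9 was at 0.92 to 2.44 CPM and 3.53 to 4.81 CPM. Cxcr2 in PBS tumors 1 and 3 and Mmp8 in PBS tumors 2 and 3 were under the detection limit. Mmp9, a matrix protease gene that macrophages also express, made up 9.48 to 12.4 CPM of the summed level in GB2 tumors and 1.32 to 3.31 CPM in PBS tumors. The defining neutrophil gene Ly6g had a count of 0 in all 6 tumors. Csf3r minus the mean log2 CPM of the 9 listed genes with any count, 3 of which did not pass the filter, was 0.97, 2.97 and 1.80 for PBS, against 2.79, 2.75 and 3.69 for GB2, which overlap, with a difference of 1.16 (exact two-sided permutation test, p = 0.3, adjusted p over 4 comparisons 0.6). Over the 6 genes that passed, a choice made after seeing the data, the values were -0.25, 1.75 and 1.20 for PBS and 1.42, 1.37 and 1.94 for GB2, with a smaller difference of 0.68 (exact permutation p = 0.4). With 9 genes, the difference was 0.69 without PBS tumor 1 and 1.69 without PBS tumor 2, and on the log2(FPKM + 0.1) scale it was 1.12 with separate groups (exact permutation p = 0.1, the smallest possible). The 5 monocyte markers summed to 3.37 to 8.57 CPM in PBS and 12 to 29.5 CPM in GB2 tumors. Only F13a1 among them had separate groups, and it made up 1.95 to 4.08 CPM in PBS and 6.34 to 14.6 CPM in GB2 tumors. Mast cells carry KIT and the common beta chain. Their 6 markers, of which 2 did not pass the filter and Cpa3 and Tpsb2 had PBS tumors at 0, summed to 0.820 to 1.69 CPM in PBS and 4.01 to 7.12 CPM in GB2 tumors. The part of the 4 cell types in the levels of the receptor genes was not tested.

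**Figure D4:**
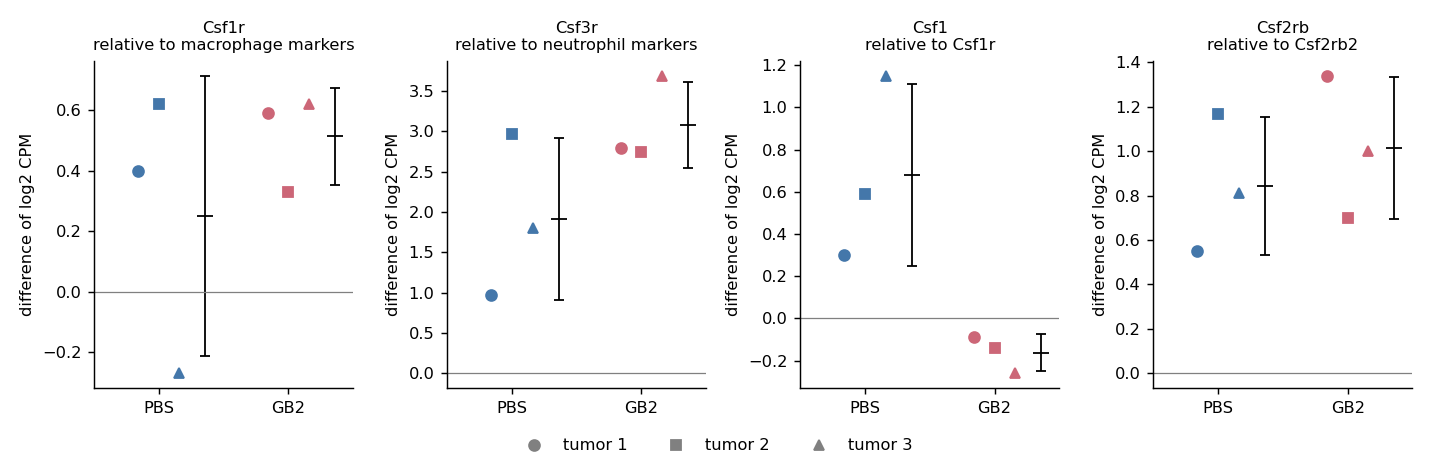
Difference of log2 CPM (vertical axes) between a gene and a marker list or a second gene in each tumor of the 2 groups, with 1 symbol per tumor and the mean and SD (n = 3) in black. The groups are separate for Csf1 relative to Csf1r and overlap in the other 3 panels.

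Genes with the most alike patterns were searched among 14246 tested genes with a mean of at least 1 CPM, by the root mean squared difference of log2 CPM centred on each gene's mean over the 6 tumors. For Csf1r these were the Fc receptor gene Fcgr1 (0.11), Gm21188 (0.13) and Tgfbi (0.13). For Csf1 they were Plcl2 (0.08), Colec12 (0.13) and Atp8b1 (0.16). For Csf2rb they were the myeloid kinase gene Fgr (0.09), Cyth4 (0.10) and Nid2 (0.11), and for Csf2rb2 they were Igsf6 (0.12), Lcp1 (0.17) and Pxdn (0.18). Csf3r was nearest to Slfn4 (0.14), Fbln2 (0.18) and Ms4a6c (0.25). The genes nearest to Il34 were Dkc1 (0.07), Fastkd2 (0.08) and Tsr1 (0.08), those nearest to Csf2ra were Mdn1 (0.04), Ctdsp2-ps (0.08) and Stambp-ps1 (0.08), and those nearest to Csf3 were Sox18 (0.25), Dpep2 (0.28) and Heyl (0.34). With 6 tumors and this many genes, close patterns are easily found, and the values describe these tumors only.

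Downstream of the receptors, 20 signaling genes were listed, and all 20 were tested. Within the unadjusted limits used above, 4 were higher in GB2 tumors and 0 were lower. Over all genes tested, 3.74% were higher and 0.918% were lower. The median log2 fold change was 0.41, against -0.02 over all genes tested. The lipid phosphatase gene Inpp5d (SHIP1), a brake on CSF1R signaling, was 1.67, 2.60 and 2.15 CPM in the PBS tumors and 5.79, 4.83 and 7.92 CPM in the GB2 tumors, a log2 fold change of 1.53. The Src family kinase gene Lyn was 4.30, 4.47 and 3.68 CPM against 9.37, 7.37 and 12.7 CPM, a log2 fold change of 1.24. Tyrobp, the gene of the adaptor DAP12 that CSF1R and TREM2 signaling share, had a log2 fold change of 1.71. For the 3 genes, edgeR's quasi-likelihood test gave adjusted p values of 0.234, 0.269 and 0.352. These 3 were named because they had the smallest p values of the list. The genes of the JAK-STAT branch had log2 fold changes of 0.10 for Jak2, 0.40 for Stat5a, 0.26 for Stat5b and 0.08 for Stat3. The kinase gene Pik3cd was at 0.41 with overlapping groups. The part of cell content in the values of the listed genes was not tested. Of the genes that STAT5 and STAT3 are known to induce as feedback, Cish was at 0.34, Socs1 at 1.06, Socs2 at -0.08 and Socs3 at 0.41, and the STAT target Pim1 was at 0.49. Socs1 was below 1 CPM in every tumor. Ptpn6, the gene of the phosphatase SHP-1, was at -0.22, with 67.3 to 74.4 CPM in the GB2 tumors, all below the 77.9 to 89.5 CPM of the PBS tumors.

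Of 10 transcription factor genes of the myeloid lineage, 8 were tested. At the same unadjusted limits 3 were higher, against 3.74% of all genes tested, and 0 were lower, against 0.918%. Their median log2 fold change was 0.43. Spi1, which encodes PU.1, an activator of Csf1r and the other CSF receptor genes, had a log2 fold change of 1.52, and Irf8, a factor of monocytes and dendritic cells, one of 1.14. In edgeR's quasi-likelihood test, the adjusted p was 0.317 for Spi1 and 0.700 for Irf8. Spi1 was 1.81, 1.89 and 1.12 CPM in the PBS tumors and 4.89, 2.92 and 6.03 CPM in the GB2 tumors, which are separate, while the groups of Irf8 overlapped. Cebpa, a factor of granulocyte and macrophage precursors, was at 0.52 with overlapping groups, and the granulocyte factors Cebpe and Gfi1 did not pass the filter.

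Of 10 related ligands and receptors, 8 were in the table and 6 were tested, and 0 were within the same limits. Kit, which encodes the stem cell factor receptor, a tyrosine kinase of the same class as CSF1R, was 3.47, 5.44 and 6.07 CPM in the PBS tumors and 11.2, 8.96 and 9.49 CPM in the GB2 tumors, a log2 fold change of 0.98 (unadjusted p 0.00901, adjusted p 0.420, edgeR's quasi-likelihood test). Its ligand gene Kitl was at 0.81 (adjusted p 0.722, edgeR). Sdc1 and Ptprz1, which encode other binding partners of interleukin-34, were at 0.36 and 0.85. Il3ra, the alpha chain that pairs with the common beta chain for interleukin-3, was at -0.35. Flt3, the receptor for the dendritic cell growth factor FLT3L, was under the detection limit in all 6 tumors.

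**Figure D5:**
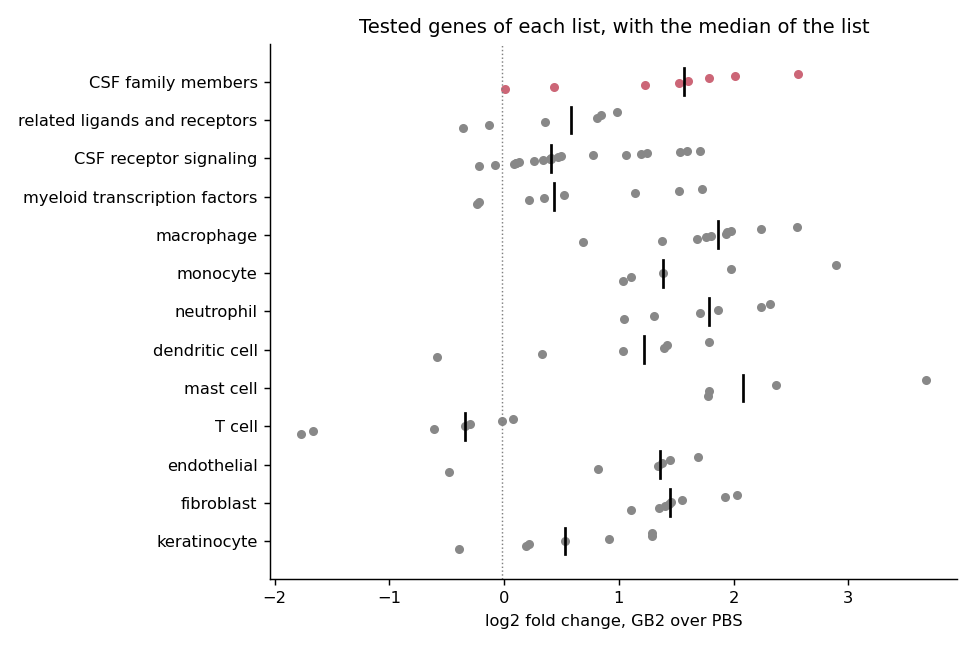
Log2 fold change of GB2 over PBS tumors (horizontal axis) for the tested genes of the colony-stimulating factor family, of 3 further lists of its pathway and of 9 cell type lists, with 1 point per gene and a bar at each median. The dotted line is the median of all genes tested. The medians are 1.56 for the 8 tested genes of the family, 0.41 for its signaling genes, and from 1.36 (endothelial) to 1.87 (macrophage) for the macrophage, monocyte, neutrophil, endothelial and fibroblast lists. The mast cell points include genes at 0 in PBS tumors, whose fitted values depend on the prior count.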

How the data were processed

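RNA of 6 MC38 tumors was sequenced as poly-A selected, dUTP-marked libraries with paired reads of 150 bases. Replicates are single tumors and were not pooled. The authors deposited estimated counts per gene, whole and unscaled, and FPKM values, normalised to transcript length and library total. Their processing notes name cutadapt 1.9, HISAT2 2.2.1, StringTie 2.1.6, DESeq2, edgeR and mm10, with no roles. Gene positions in the table differ from those of GRCm38 and are printed as deposited. Low counts pile up at multiples of 4 (7017 values of 4, 2984 of 3, 2017 of 5), so about 4 counts were taken as 1 read pair. edgeR took each count as a read, so the counting error of low genes is understated.

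The tests of counts ran in edgeR 4.0.16 under R 4.3.3 (filterByExpr with a minimum count of 10, TMM, glmQLFit, glmQLFTest, Benjamini-Hochberg adjustment over 19602 genes). Log2 CPM used a prior count of 2. The biological coefficient of variation was 40.5%. DESeq2 1.42.0 and limma 3.58.1 on log2(FPKM + 1), RLE and upper quartile factors, other filters, counts divided by 4, a replicate block and leaving out each tumor were alternatives. The computations were tested on simulated counts. The labels give no batch. Members, gene lists and tests were chosen with earlier results of these data known. All 9 members are named, with the 3 smallest p values of each pathway list, other listed genes whose role in the pathway is described, and the 3 genes of most alike pattern per tested member. One listed gene is not reported here.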

Additional observations from a re-analysis of the deposited data

How the results depend on the processing

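The log2 fold changes of Csf1, Csf1r, Csf2ra, Csf2rb, Csf2rb2, Csf3 and Csf3r stayed positive under every alternative that gave a value. Their adjusted p stayed above 0.05 in each except DESeq2, which called Csf1, Csf1r, Csf2rb, Csf2rb2 and Csf3r. DESeq2 called 385 genes and 5 members, where edgeR called 0 of either. The direction of Il34 rested on single tumors, with log2 fold changes from -0.21 to 0.27 when 1 was left out. Leaving out PBS tumor 2 gave -0.13, PBS tumor 3 gave -0.07 and GB2 tumor 3 gave -0.21. With limma on log2(FPKM + 1), which compresses changes of low genes, 95 genes were higher and 34 lower at the unadjusted limits, 1 of them a member. Lower genes numbered 338 with no filter on low counts and 86 with a minimum of 1 CPM in 3 tumors. With 1 tumor left out, 503 to 950 genes were higher and 123 to 548 lower at those limits, 4 to 5 members were higher, and 4238 to 5999 genes had groups that did not overlap, against 2996 with all tumors, since fewer tumors overlap less often. In the same way, Csf1r relative to the macrophage markers ran from -0.00071 to 0.44. Replicate numbers did not pair the libraries, with correlations of 0.03, 0.15 and -0.24 between same-numbered tumors, and with a replicate block 636 genes were higher, 128 lower and 5 members higher. The cause of these shifts was not tested. The spread between tumors was 40.5%, with 3 tumors per group, and the part of either in the number of genes called was not tested.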

Other observations

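Further ratios per transcript length were formed after the values had been seen and have no test. The FPKM of Csf2rb over that of its partner chain Csf2ra was 0.145, 0.126 and 0.110 for PBS, against 0.249, 0.306 and 0.287 for GB2, so the beta chain was the scarcer transcript in all 6 tumors and closer to the alpha chain in each GB2 tumor. The ratio of Csf1 to Il34, the 2 ligands of CSF1R, was 1.62, 4.14 and 1.93 for PBS, against 5.40, 5.35 and 5.73 for GB2. That of Csf3r to Csf2rb was 0.709, 0.737 and 0.553 against 1.34, 0.998 and 1.55. Each ratio was higher in all 3 GB2 tumors than in any PBS tumor, which restates the levels given above and is not a separate result.

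Fibroblasts and endothelial cells are known sources of M-CSF. Within limits of 0.05 on edgeR's unadjusted p and of 2 on the fold change, all 8 fibroblast markers were higher in GB2 tumors. So were 4 of 6 endothelial markers, against 3.74% of all genes tested. The other endothelial markers, Emcn and Vwf, had log2 fold changes of 0.82 and -0.48. The median log2 fold changes were 1.45 for the fibroblast and 1.36 for the endothelial markers. Of 6 skeletal muscle markers, 0 passed these limits, at a median of 0.73. All 6 had positive log2 fold changes, and 5 had every GB2 tumor above every PBS tumor, against 8.61% of all genes tested. Their summed level was 80.1 to 143 CPM in PBS and 148 to 191 CPM in GB2 tumors. Activated T cells are a known source of GM-CSF. Of 7 T cell markers, 1 had a positive log2 fold change and 0 passed these limits, at a median of -0.34 and a summed level of 0.368 to 6.09 CPM in PBS and 0.691 to 3.56 CPM in GB2 tumors. The part of these cells in the levels of Csf1 and Csf2 was not tested.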
